A study of Homo sapiens with 4 samples.

Results

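The extracellular matrix genes described here were taken by symbol, as every collagen chain, laminin chain and matrix metalloproteinase (MMP), together with FN1, SPARC, TNC, THBS1, THBS2, FBN1, FBN2, HSPG2, NID1, NID2, AGRN, TIMP1, TIMP2 and TIMP3. They numbered 97 of the 23228 genes counted. Among the 97 were 4 genes that only share a symbol prefix, namely COL4A3BP, which encodes a ceramide transfer protein, and the pseudogenes COL6A4P1, COL6A4P2 and LAMB2P1. Of these, 63 passed edgeR's filter on low counts and were tested (COL4A3BP and LAMB2P1 included), and 34 did not. RNA-seq had been performed on ALDH+ ovarian cancer stem cells (OCSCs), cells sorted for high aldehyde dehydrogenase activity and labelled as coming from SKOV3, an established human ovarian cancer cell line. The OCSCs were grown as serum-free spheroids with EGF and bFGF and were treated for 24 h with vehicle (2 samples) or with 5 µM LY500307, a synthetic agonist of estrogen receptor β (2 samples). The comparison asked which transcripts LY500307 changed in these cells. The sources do not say whether samples of a group were separate cultures, so p-values measure only the spread between these samples, which may be technical.

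The extracellular matrix is laid down by the cells that touch it. Collagen chains are built into trimers in the endoplasmic reticulum. Fibrillar collagens then assemble into cables, while network-forming collagens join laminins, nidogens, perlecan and agrin in the basement membrane, the sheet on which epithelia rest. MMPs are zinc-dependent proteases that cut these proteins, and TIMPs are their secreted inhibitors. In ovarian cancer, matrix and MMPs are known for their part in spheroid growth and in spread across the peritoneum.

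Gene totals ranged from 28841701 to 34943882 reads per library, and the 97 genes took 0.675% and 0.674% of them in the vehicle libraries and 0.735% and 0.775% in the LY500307 libraries. ESR2, which encodes estrogen receptor β, had 7 to 12 reads per library, and ESR1 had 0 in every library. Several markers went against the label of the cells. The epithelial genes KRT7 (at most 1 read), KRT19 (at most 2 reads) and CDH1 (at most 4 reads) were near 0 in every library, although EPCAM had 6213 to 8327 reads and KRT18 668 to 1030. The 6 epithelial markers summed to 235 and 242.5 CPM with vehicle and 270.2 and 227 CPM with LY500307. Most of this was EPCAM (208 and 219 CPM, then 240 and 194 CPM). ERBB2, known to be amplified in SKOV3, ranked 7227 of 13782 genes by level per length, averaged over all samples. The stromal marker PDGFRA had 39900 to 48624 reads, while FAP had 0. The 8 stromal markers summed to 1512 and 1479 CPM with vehicle and 1483 and 1517 CPM with LY500307. Nearly all of this was PDGFRA (1436 and 1404 CPM, then 1401 and 1436 CPM). ACTA2 came next, at 37.9 and 38.5 CPM, then 45.8 and 43.3 CPM. None of the 8 met the criteria for a change. Of the 4 endothelial markers, PECAM1, CDH5 and VWF were below 1 CPM in every library, as were PTPRC, CD3E and CD14 among the 4 leukocyte markers. The endothelial sums (133 to 152 CPM, nearly all KDR) and the leukocyte sums (11.8 to 18.1 CPM) overlapped between groups, and no marker of these lists met the criteria. The label is kept below, and the identity of the cells was not tested. In bulk RNA, fewer cells of a type and less RNA per cell cannot be told apart.

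Promoters are shown for the 6 matrix genes that met the criteria for differentially expressed genes (DEGs, defined below) and for COL4A5 and COL4A6, which held most type IV collagen reads. Each is the 250 bases before the gene start in RefSeq (GRCh38.p14), 5′ to 3′ on the gene's own strand. Capitals mark the estrogen response element core GGTCA and the AP-1 site TGANTCA on either strand. The windows lie at chr3:48595330-48595579 (COL7A1, minus strand), chr9:114155287-114155536 (COL27A1, plus), chr6:33193520-33193769 (COL11A2, minus), chr1:40317287-40317536 (COL9A2, minus), chr14:22836335-22836584 (MMP14, plus), chr22:23772599-23772848 (MMP11, plus), chrX:108439588-108439837 (COL4A5, plus) and chrX:108439459-108439708 (COL4A6, minus).
COL7A1: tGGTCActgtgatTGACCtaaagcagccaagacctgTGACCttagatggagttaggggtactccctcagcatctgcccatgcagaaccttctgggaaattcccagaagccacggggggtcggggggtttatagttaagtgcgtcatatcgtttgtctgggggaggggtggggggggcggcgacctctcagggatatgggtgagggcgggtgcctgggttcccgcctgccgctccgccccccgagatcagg
COL27A1: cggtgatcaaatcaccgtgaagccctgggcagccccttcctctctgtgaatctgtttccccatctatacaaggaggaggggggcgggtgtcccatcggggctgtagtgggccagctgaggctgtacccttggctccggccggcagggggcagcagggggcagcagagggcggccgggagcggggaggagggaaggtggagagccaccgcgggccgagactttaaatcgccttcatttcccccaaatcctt
COL11A2: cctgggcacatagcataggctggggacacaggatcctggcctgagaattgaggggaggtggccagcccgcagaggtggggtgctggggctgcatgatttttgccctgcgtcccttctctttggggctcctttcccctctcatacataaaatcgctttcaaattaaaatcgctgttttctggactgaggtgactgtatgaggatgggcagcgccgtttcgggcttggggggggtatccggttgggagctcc
COL9A2: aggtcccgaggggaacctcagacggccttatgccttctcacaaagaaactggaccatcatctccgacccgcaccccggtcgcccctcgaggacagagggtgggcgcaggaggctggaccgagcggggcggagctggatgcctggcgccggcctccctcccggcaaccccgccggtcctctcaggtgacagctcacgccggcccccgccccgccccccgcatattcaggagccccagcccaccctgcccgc
MMP14: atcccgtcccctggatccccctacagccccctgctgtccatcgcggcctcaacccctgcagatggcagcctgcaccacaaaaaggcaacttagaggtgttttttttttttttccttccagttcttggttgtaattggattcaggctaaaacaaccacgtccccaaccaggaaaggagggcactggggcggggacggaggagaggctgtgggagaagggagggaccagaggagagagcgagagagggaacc
MMP11: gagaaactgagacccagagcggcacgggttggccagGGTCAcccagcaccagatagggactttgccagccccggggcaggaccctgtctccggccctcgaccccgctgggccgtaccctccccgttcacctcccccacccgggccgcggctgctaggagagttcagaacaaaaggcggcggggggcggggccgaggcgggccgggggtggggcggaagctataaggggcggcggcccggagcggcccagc
COL4A5: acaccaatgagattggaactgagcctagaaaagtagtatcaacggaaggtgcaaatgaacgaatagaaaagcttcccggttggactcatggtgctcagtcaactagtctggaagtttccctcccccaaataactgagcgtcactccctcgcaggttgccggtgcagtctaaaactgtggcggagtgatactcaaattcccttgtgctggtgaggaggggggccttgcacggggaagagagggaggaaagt
COL4A6: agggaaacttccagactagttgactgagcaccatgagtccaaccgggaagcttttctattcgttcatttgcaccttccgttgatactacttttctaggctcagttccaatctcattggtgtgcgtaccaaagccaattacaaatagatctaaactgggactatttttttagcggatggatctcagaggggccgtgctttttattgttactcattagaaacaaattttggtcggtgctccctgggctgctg

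The GGTCA core occurred 3 times in the COL7A1 window and 1 time in the MMP11 window, and 0 times in the other 6. No AP-1 site was found in the 8 windows. The full element (GGTCA, any 3 bases, then TGACC) was in 0 of the 47 windows matched among the 63 tested genes and in 0.0439% of all 27305 promoters. GGTCA was in 19.1% of these 47 windows and in 33.1% of all promoters, and TGANTCA in 2.13% and 6.6%. GC boxes (GGGCGG) were in 66% of the 47 windows and in 42.3% of all promoters. The COL4A5 and COL4A6 windows overlap, since these genes start close together and are transcribed away from each other.

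With vehicle, the OCSCs carried a matrix transcriptome rich in nidogen, laminin γ1, fibrillar collagens and TIMP1. Levels between genes are compared as CPM (counts scaled to a common library size with TMM) per kilobase of annotated exon. Averaged over all samples, TIMP1 led the matrix genes by this measure and ranked 29 of 13782 genes. Its mean was 229 CPM per kb in vehicle and 309 in LY500307 samples. NID1, which encodes nidogen-1, a linker between laminin and type IV collagen, followed with 198 and 208 CPM per kb. The γ1 laminin chain LAMC1 had 98.5 and 97.6 CPM per kb. COL3A1, COL5A2, NID2, LAMB2, COL2A1, COL6A1 and COL6A2 completed the 10 highest, between 33.6 and 65.2 CPM per kb with vehicle. NID1 and LAMC1 together took 28.9% and 29.1% of the matrix reads in the vehicle libraries and 29.3% and 25.4% in the LY500307 libraries.

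**Figure D1:**
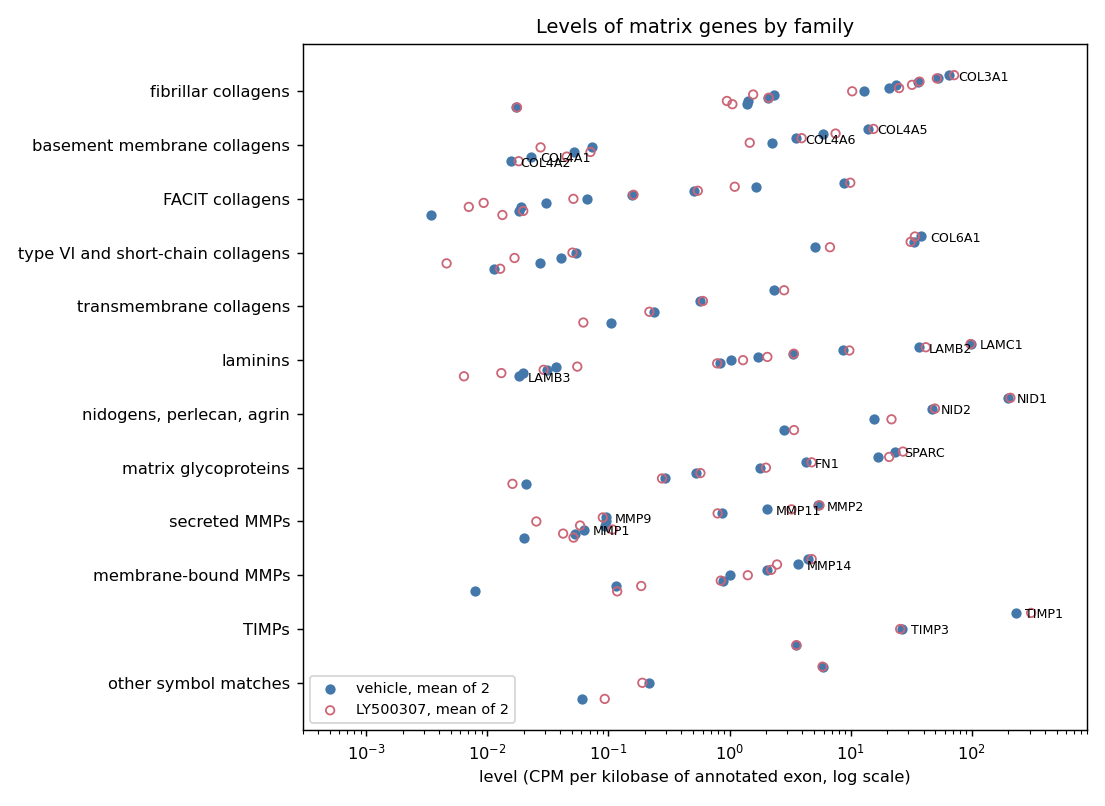
Mean level of each matrix gene (x axis, CPM per kilobase of annotated exon, log scale) by family, with vehicle as filled and LY500307 as open circles (mean of 2 samples each). Genes with no reads in a group are left out; TIMP1, NID1 and LAMC1 lie at the high end, and COL4A1 and COL4A2 lie far below COL4A5 and COL4A6.

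Some chains of common trimers were nearly absent. The ubiquitous type IV chains COL4A1 (13 and 7 reads with vehicle, 30 and 15 with LY500307) and COL4A2 (14 and 4, then 5 and 18) had few reads. The type IV chains COL4A5 (4425 to 6452 reads per library) and COL4A6 (956 to 1327), which share a trimer, had many. Of the laminin-332 chains of epithelial hemidesmosomes, LAMB3 had at most 4 reads and LAMA3 at most 31. The chains LAMA1, LAMA5, LAMB1, LAMB2 and LAMC1, found in laminins of many basement membranes, each had over 700 reads in every library. Secreted MMPs were scarce. MMP9 had 5 to 8 reads, MMP1 5 to 12, and MMP7 0 in every library, where a count of 0 allows up to 0.106 CPM in the shallowest library (3 reads, counting error only). MMP2, the type IV gelatinase, had 730 to 976 reads. Of the 16 secreted MMPs, 3 passed the filter, against 6 of the 8 membrane-bound MMPs. The 8 include MMP23A, annotated as a pseudogene, which did not pass.

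With LY500307, COL7A1, COL27A1, COL11A2, COL9A2 and MMP14 fell and MMP11 rose, by the study's criteria for DEGs applied to edgeR. These criteria are an unadjusted p under 0.05 with a log2 fold change, log2FC, beyond 0.5 in either direction. The study applied them to DESeq2 results. Values of log2FC are LY500307 minus vehicle and are given ± standard error. The 5 genes that fell were 7.94% of the 63 tested, where 1.86% of all 14473 genes tested fell. The gene that rose was 1.59% of the 63, where 2.76% of all genes rose. Together the 6 were 9.52%, against 4.62% of all genes. With library totals alone or with length correction, 3 matrix genes rose and 5 fell. Of all 14473 genes, 484 rose and 210 fell with library totals alone, and 298 rose and 290 fell with length correction. DESeq2, which tested more low-count genes, called the same 6 and COL6A4P1, against 3.07% of the 18407 genes it tested. An unadjusted p below 0.05 was found for 15 of the 63 (23.8%; 11.6% of all genes). None of the 63 had an adjusted p below 0.05 with edgeR's quasi-likelihood test, nor did any of the 14473 genes (1678 at an unadjusted p below 0.05), and with DESeq2 none of the 63 did either. The median log2 fold change of the 63 was 0.09 (0.08 for LY500307 replicate 1 and 0.10 for replicate 2 against the vehicle mean), and that of all genes was -0.0001. Without the prefix-only matches, 61 genes were tested, the same number (6) met the criteria and the median was 0.11. No test was made of the genes as a set.

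**Figure D2:**
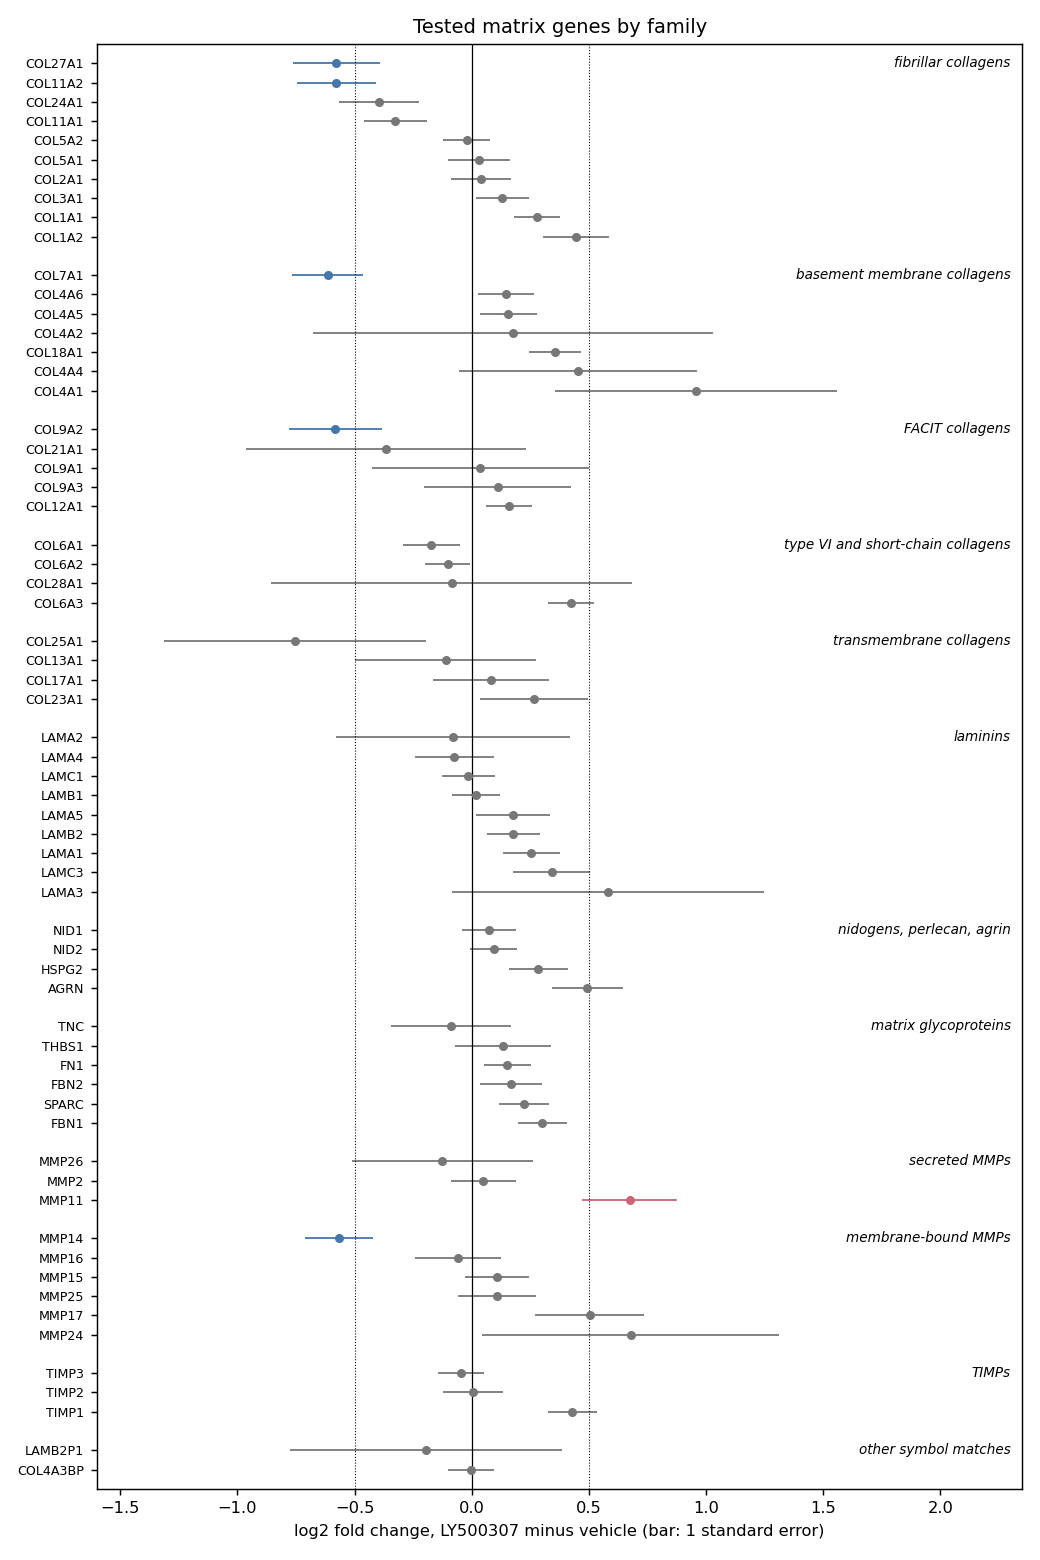
Log2 fold change, LY500307 minus vehicle (x axis, edgeR), of the 63 tested matrix genes by family, with bars of 1 standard error and dotted lines at an absolute value of 0.5. Blue marks the 5 genes that fell by the DEG criteria and red marks MMP11, which rose; most others lie within the dotted lines.

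COL7A1 encodes the chain of type VII collagen, the anchoring fibril that ties basement membranes to the tissue beneath. It lies on chromosome 3 of GRCh37 (48601506 to 48632762, minus strand) and had 23.6 and 26.5 CPM with vehicle and 17.8 and 14.9 CPM with LY500307. Its log2FC was -0.61 ± 0.15 (adjusted p = 0.422, edgeR). Both LY500307 samples lay below both vehicle samples, and no gene other than MIR711 overlapped its exons in the annotation. Without LY500307 replicate 2 the log2 fold change was -0.50, just inside the limit.

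MMP14 encodes MT1-MMP, a membrane-anchored collagenase that activates pro-MMP2 at the cell surface. On chromosome 14 (23305769 to 23318250, plus strand), it had 16.95 and 16.82 CPM with vehicle and 11.7 and 11.1 CPM with LY500307. The groups were far apart relative to their spread, with a log2FC of -0.57 ± 0.15 (adjusted p = 0.422, edgeR). MMP14 was called in each of the 4 fits that left out a sample, from -0.60 to -0.53.

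MMP11, stromelysin-3, is a secreted MMP that is activated inside the cell by furin. On chromosome 22 (24110413 to 24126503, plus strand), it had 10.1 and 10.8 CPM with vehicle and 13.7 and 19.8 CPM with LY500307. The LY500307 samples were both higher but differed from each other, and the log2FC was 0.67 ± 0.20 (adjusted p = 0.422, edgeR). It was 0.38 when LY500307 replicate 2 was left out and 0.92 when replicate 1 was.

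The other 3 genes that fell encode collagens best known from cartilage. COL11A2, on chromosome 6 (33130458 to 33160276, minus strand), encodes a chain of type XI collagen, which sits inside thin fibrils. Its values were 10.5 and 10.4 CPM with vehicle and 7.15 and 6.87 CPM with LY500307, a log2FC of -0.58 ± 0.17. COL9A2, on chromosome 1 (40766161 to 40783485, minus strand), encodes a chain of type IX collagen, which decorates type II fibrils. It went from 7.44 and 6.51 CPM to 4.64 and 4.67 CPM, a log2FC of -0.58 ± 0.20. COL27A1, on chromosome 9 (116917817 to 117074791, plus strand), encodes a fibrillar collagen of growing cartilage. Its vehicle samples were alike, at 32.8 CPM each, and its LY500307 samples were 26.2 and 17.8 CPM, a log2FC of -0.58 ± 0.19. In all 3 genes the groups did not overlap, and each had an adjusted p of 0.422 (edgeR). COL27A1 was -0.33 without LY500307 replicate 2. COL11A2 (-0.57) and COL9A2 (-0.48) did not meet the criteria without vehicle replicate 1.

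**Figure D3:**
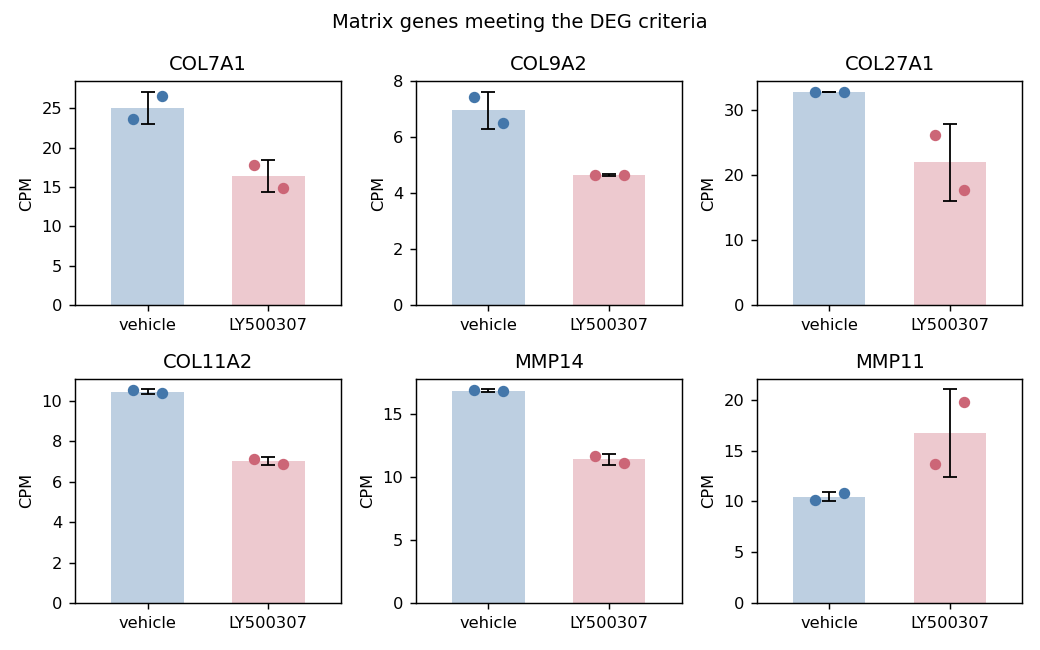
CPM of the 6 matrix genes that met the DEG criteria, in each sample (points), with bars for group means and error bars for the SD (n = 2 per group). Both LY500307 points lie below both vehicle points for 5 genes and above them for MMP11; the LY500307 points are widely spaced for COL27A1 and MMP11.

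Among the 10 fibrillar collagens tested, 2 fell (COL27A1 and COL11A2), 0 rose and 8 did not meet the criteria. The type I chains, which form the most common fibril, were higher in both LY500307 samples. COL1A1 had 182 and 190 CPM with vehicle and 222 and 230 CPM with LY500307, a log2FC of 0.28 ± 0.10. COL1A2 had 253.8 and 256.5 CPM, then 299 and 395 CPM, a log2FC of 0.44 ± 0.14 that was 0.64 when LY500307 replicate 1 was left out and 0.23 when replicate 2 was. COL11A1, the other type XI chain, was lower in both LY500307 samples (123 and 112 CPM, then 105 and 81.9), with a log2 fold change of -0.33 that was -0.51 when LY500307 replicate 1 was left out and -0.16 when replicate 2 was. COL24A1 had a log2 fold change of -0.40 (-0.55 and -0.26 in these same fits), with 13.3 CPM in each vehicle sample and 11.2 and 9.07 CPM with LY500307. These 4 genes had an unadjusted p below 0.05 in edgeR without reaching the fold limit. COL1A1 was above 0.05 with GC correction (log2FC 0.18) and with the replicate block, COL24A1 under DESeq2, a filter at 1 CPM or the replicate block, and COL11A1 and COL24A1 with library totals alone and with length correction. COL3A1 (0.13), COL2A1 (0.04), COL5A1 (0.03) and COL5A2 (-0.02) had smaller log2 fold changes. COL2A1, the partner of types IX and XI in cartilage, ranged from 238 to 242 CPM with vehicle and from 218 to 275 CPM with LY500307, so that its groups overlapped.

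Of the 7 basement membrane collagens tested, COL7A1 fell and 6 did not meet the criteria. COL18A1, whose protein carries the endostatin fragment, had 48.7 and 50.5 CPM with vehicle and 59.9 and 67.2 CPM with LY500307. Its log2FC of 0.36 ± 0.11 was 0.18 with GC correction, and its exons overlap those of SLC19A1 on the opposite strand. COL4A5 had a log2FC of 0.15 ± 0.12 with overlapping groups, and it ranged from 0.02 to 0.28 when a sample was left out. COL4A6, also at 0.15 ± 0.12, was higher in both LY500307 samples and ranged from 0.08 to 0.21, and it was 0.09 with GC correction. COL4A1 had the highest value among the tested genes, a log2FC of 0.96, but its standard error was 0.60 and it rested on 7 to 30 reads per library.

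The chains of type VI collagen, a beaded filament built from 3 different chains, had unlike values. COL6A3 had 104 and 112 CPM with vehicle and 146 and 144 CPM with LY500307, a log2FC of 0.42 ± 0.10. COL6A1 had 208 and 215 CPM, then 207 and 169 CPM, a log2 fold change of -0.17 that was -0.32 when LY500307 replicate 1 was left out, -0.03 when replicate 2 was, and -0.30 with GC correction. COL6A2 had 181 and 177 CPM, then 170 and 163 CPM, a log2 fold change of -0.10 (-0.26 with GC correction). The COL6A3 to COL6A1 read ratio within a library does not depend on library scaling. It was 0.5 and 0.523 with vehicle and 0.706 and 0.856 with LY500307, a log2 difference of 0.60 without overlap. The exact two-sided permutation test gave p = 0.333, the smallest possible with 2 samples per group. The COL6A2 to COL6A1 ratio overlapped between groups (0.870 and 0.824, then 0.824 and 0.967).

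Other FACIT and transmembrane collagens gave less. COL9A2 fell, and the other 4 FACIT chains tested, which link fibrils to their surroundings, did not meet the criteria. COL12A1, the most highly expressed of them, had a log2 fold change of 0.16. The other type IX chains were low, at 28 to 66 reads for COL9A1 and 54 to 98 for COL9A3, and their groups overlapped. The 4 transmembrane collagens all overlapped between groups.

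None of the 9 laminin chains tested met the criteria, and log2FC was positive for 6. Among all 63 matrix genes it was positive for 40 (63.5%), and among all 14473 genes tested for 7232. The major chains LAMC1 (836 and 828 CPM, then 873 and 776), LAMB1 (63.5 and 61.0 CPM, then 63.2 and 63.0) and LAMA5 (125 and 121 CPM, then 115 and 163) overlapped between groups. LAMB2 (251 and 256 CPM, then 265 and 308), LAMA1 (0.25 on the log2 scale) and LAMC3 (0.34) were higher in both LY500307 samples. LAMB2 had a log2FC of 0.18 ± 0.11, which was 0.07 with GC correction, 0.29 when LY500307 replicate 1 was left out and 0.07 when replicate 2 was.

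For all 4 basement membrane linkers log2FC was positive, and 0 met the criteria. AGRN, which encodes the heparan sulfate proteoglycan agrin, came nearest. It had 165 and 168 CPM with vehicle and 196 and 271 CPM with LY500307, a log2FC of 0.49 ± 0.15. This was 0.71 when LY500307 replicate 1 was left out, 0.24 when replicate 2 was, and 0.32 with GC correction. HSPG2, the gene for perlecan, had 50.5 and 50.9 CPM, then 55.6 and 67.8 CPM (0.28 on the log2 scale, 0.14 with GC correction and 0.13 without LY500307 replicate 2). NID2 (290.5 and 288 CPM, then 313 and 304) was a little higher in both LY500307 samples, and NID1 (1138 and 1161 CPM, then 1295 and 1125) overlapped. NID1 had the smallest log2FC of the 4, at 0.07, which was 0.01 with GC correction and -0.03 without LY500307 replicate 1.

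The groups did not overlap for any of the 6 matrix glycoproteins tested. In 5 of them both LY500307 samples were higher, and none met the criteria. Across all 63 matrix genes, both LY500307 samples were higher in 24 (38.1%; 24.2% of all genes tested) and both lower in 11 (17.5%; 24.4% of all genes), of which LAMB2P1 was 1. FBN1, which encodes the microfibril protein fibrillin-1, had 313 and 312 CPM with vehicle and 367 and 403 CPM with LY500307, a log2FC of 0.30 ± 0.10. SPARC, a collagen-binding matricellular protein, had 115 and 99.8 CPM, then 123 and 128 CPM (0.22 on the log2 scale). FN1, fibronectin, had 72.4 and 75.1 CPM, then 84.6 and 79.3 CPM (0.15). FBN2 (0.17) and THBS1 (0.13) were also higher, and TNC, tenascin-C, was lower (-0.09, with 79 to 91 reads per library).

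Of the membrane-bound MMPs, MMP14 fell, and the other 5 tested did not meet the criteria. MMP17, at a log2FC of 0.50 ± 0.23, rested on 109 to 219 reads per library, and with scaling by library totals it met the criteria. Over the alternatives that kept every sample, its log2FC ranged from 0.33 to 0.54. MMP15 and MMP25 each had a log2 fold change of 0.11, which turned to -0.05 and -0.06 with GC correction. MMP2, the protease that MMP14 activates, had 24.4 and 26.0 CPM with vehicle and 28.1 and 24.0 CPM with LY500307, and its groups overlapped.

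TIMP1, a soluble inhibitor of most MMPs but a weak inhibitor of MMP14, had 318 and 346 CPM with vehicle and 442 and 451 CPM with LY500307. Its log2FC was 0.43 ± 0.10 (adjusted p = 0.422, edgeR), short of the fold limit, and DESeq2 gave an adjusted p of 0.0999. With length correction the log2FC was 0.29, and with GC correction 0.33. Genes tested with under 2000 bases of annotated exon had a median log2 fold change of 0.13, and TIMP1 has 1446 bases. Over all alternatives that kept every sample, its adjusted p lay between 0.0999 and 0.525. TIMP2 (22.2 and 21.8 CPM, then 22.4 and 21.8) and TIMP3 (121 and 122 CPM, then 122 and 113) overlapped between groups. The TIMP1 to MMP14 read ratio was 18.7 and 20.6 with vehicle and 37.8 and 40.6 with LY500307, a log2 difference of 1.00. Read ratios were not corrected for length or GC content. The TIMP2 to MMP14 ratio was 1.31 and 1.30, then 1.92 and 1.96. The MMP11 to MMP14 ratio was 0.598 and 0.642, then 1.17 and 1.78. These 3 ratios all have MMP14 as the denominator, so they are not independent of each other or of its fall. None of them overlapped between groups, and for each the exact two-sided permutation p was 0.333. In all, 12 ratios were compared, chosen after the values were seen, and an adjusted p could not be lower.

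**Figure D4:**
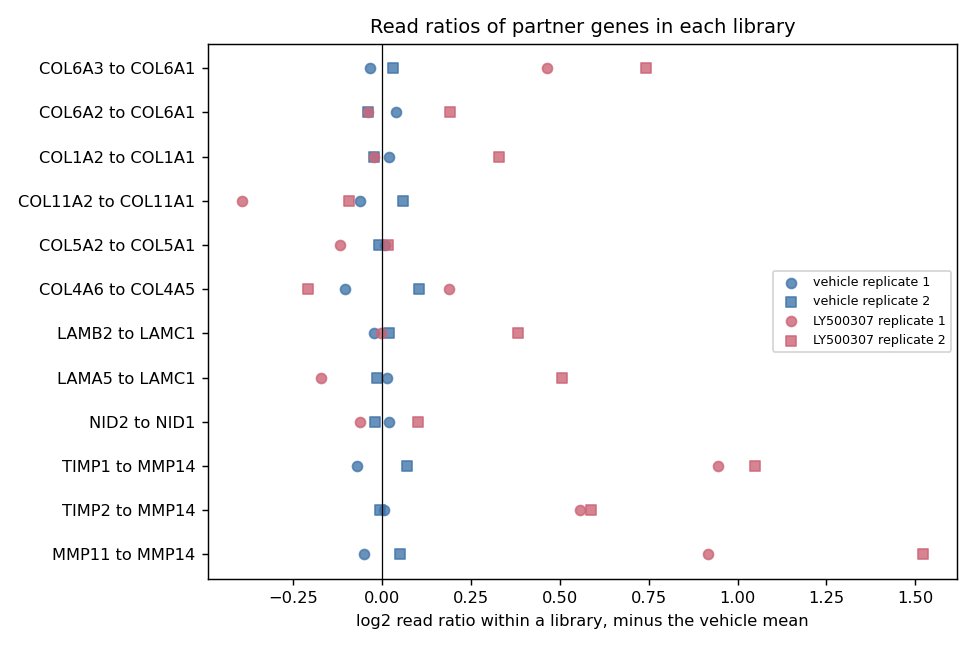
Log2 read ratio of 12 pairs of matrix genes within each library, minus the vehicle mean of that ratio (x axis), for 2 vehicle (blue) and 2 LY500307 samples (red). The LY500307 points lie well to the right for COL6A3 to COL6A1 and for the 3 ratios to MMP14, COL11A2 to COL11A1 lies to the left, and the other 7 pairs overlap.

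GC content moved with the fold change across all genes. The median log2 fold change of all genes tested went from -0.13 below 40% exonic GC to 0.14 at 60% and above. The 5 matrix genes that fell had 58.1% to 63.9% GC, a range in which the medians of all genes were positive (0.10 and 0.14). MMP11, which rose, had 61.2% GC, where the median of all genes was 0.14, and its log2FC was 0.55 with GC correction. All 6 called matrix genes were also called with GC correction and with length correction.

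**Figure D5:**
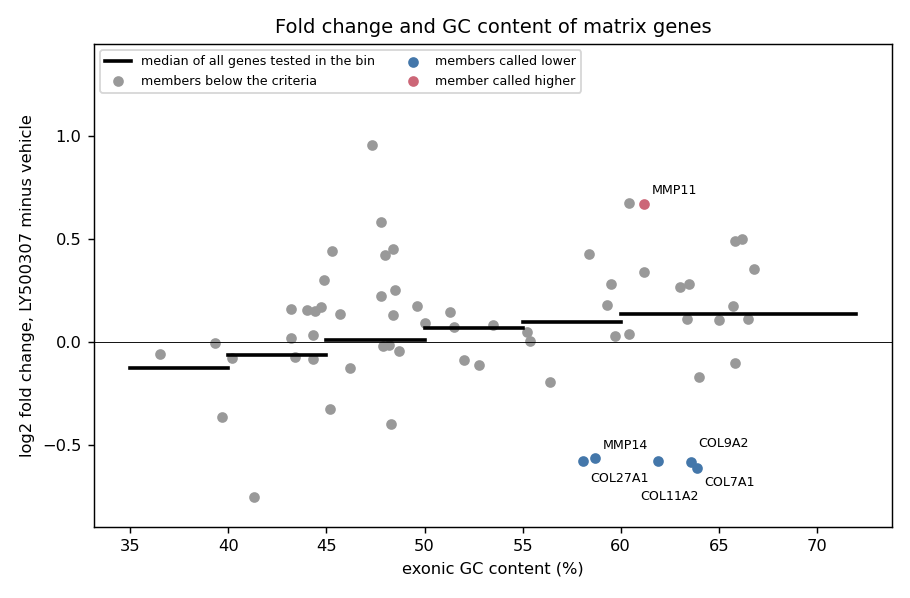
Log2 fold change (y axis, LY500307 minus vehicle) against exonic GC content (x axis, %) of the 63 tested matrix genes, with black lines for the median of all genes tested in each GC bin. The 5 genes that fell (blue) lie between 58.1% and 63.9% GC, below the lines, which climb from -0.13 to 0.14.

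The genes that mature collagen and regulate matrix turnover were taken from a list of 51 genes, of which 48 were tested. In this list 3 genes rose (2.76% of all genes tested did) and 0 fell (1.86% of all genes), and the median log2 fold change was 0.07. PLAU, the urokinase plasminogen activator, had 39.4 and 39.7 CPM with vehicle and 55.8 and 59.4 CPM with LY500307, a log2FC of 0.54 ± 0.11. LOXL1, a lysyl oxidase-like crosslinking enzyme, had 3.50 and 2.74 CPM, then 5.07 and 4.49 CPM, a log2FC of 0.61 ± 0.24. Both genes were higher in both LY500307 samples, with an adjusted p of 0.422 for PLAU and 0.428 for LOXL1 (edgeR). With GC correction, PLAU (0.46) and LOXL1 (0.47) no longer met the criteria. PLAU also missed them with length correction (0.49) and without LY500307 replicate 2 (0.49). LOXL1 missed them without vehicle replicate 2 (0.45) and without LY500307 replicate 1 (0.53), and with DESeq2 (0.61), by which 2 genes of the list were called. Enzymes that modify collagen chains did not meet the criteria. The lysyl hydroxylase PLOD2 (17.3 and 18.3 CPM, then 15.2 and 12.1, a log2FC of -0.39) and the prolyl hydroxylase subunits P4HA1 (-0.22) and P4HA2 (-0.16) were lower in both LY500307 samples. The collagen chaperone SERPINH1 (0.10) and the prolyl hydroxylase subunit P4HB (0.07) were higher in both, and PLOD1 (-0.0048) and PLOD3 (0.06) overlapped.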

How the data were processed

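RNA was sequenced from OCSCs labelled SKOV3, 2 samples per treatment, as single-end reads per the labels. The authors aligned reads to hg19 with TopHat2 (2.0.8b) and counted them on gene symbols with HTSeq, per the submitters' processing notes. They deposited raw read counts per gene, without normalization. The strand setting is not given in the sources used here. Without it, reads of COL1A1, COL5A1, COL9A1, COL9A3, COL18A1, FBN2, HSPG2, LAMA1, LAMA5, LAMB1, NID2, SPARC, THBS1, TNC, MMP25 and TIMP2 cannot be told apart from those of annotated genes on the opposite strand that overlap them. Tally lines for reads outside genes (26.2% to 31.5% of reads assigned, ambiguous or on no feature) were left out.

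The test was edgeR 4.0.16 under R 4.3.3 (TMM, filterByExpr, quasi-likelihood test, Benjamini-Hochberg adjustment over 14473 genes). Standard errors are the absolute log2 fold change divided by the square root of F. DEGs met the study's criteria, an unadjusted p under 0.05 with a log2 fold change beyond 0.5 in either direction. The study itself had used DESeq2. DESeq2 1.42.0, size factors, filters, a replicate block, loess corrections (span 0.3) for exonic length and GC content, and leaving out samples were alternatives. The procedure was tested on simulated data. Exon lengths, GC content and positions came from GENCODE v44 on GRCh37, to which 91.8% of symbols matched. Median differences per sample used log2 of CPM plus 0.5. The genes were the members found by symbol, and they and the lists were chosen with earlier results of these data known. Named genes were those meeting the criteria, the 10 with the highest level per length and a fixed set of well-known members. COL6A3, COL11A1, COL24A1, FBN1, COL4A5, COL4A6, COL12A1, LAMA1, LAMC3, FBN2, MMP15, MMP17, MMP25, PLOD2, P4HA1 and other genes outside this rule were named after their values were seen. Values of some genes in the lists are not reported here.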

Additional observations from a re-analysis of the deposited data

How the results depend on the processing

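The 6 matrix genes that met the criteria met them in all 10 alternatives that kept every sample, and matrix genes with an adjusted p below 0.05 numbered 0 in each. The genes that rose numbered 3 in place of 1 with library totals alone, with all genes of at least 1 count, with length correction and with the replicate block with length correction. AGRN and MMP17 joined MMP11 in the first, MMP17 and MMP19 in the second, and AGRN and COL6A3 in the others. In the same order, 484, 506, 298 and 319 of all genes tested rose, against 400 in the main fit. The second of these fits tested 18407 genes and the others 14473. The median log2 fold change of the tested matrix genes was 0.13 with library totals alone, 0.050 with GC correction and 0.050 with the replicate block with GC correction. The maturation and turnover genes called numbered 1 with GC correction and 1 with the replicate block with GC correction, where 559 and 562 of all 14473 genes were called.

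Leaving out each sample in turn (4 fits), the matrix genes called ranged from 4, when LY500307 replicate 2 was absent, to 10, when LY500307 replicate 1 was, those that fell from 3 to 7, those that rose from 1 to 3, and the median from 0.059 to 0.11. Of the 6 genes, 3 were called without LY500307 replicate 2, 4 without vehicle replicate 1 and 6 in the other fits. Adjusted p-values are not given for fits with a lone sample in a group. In these fits a lone sample is assumed to vary like the other group, but the groups did not vary alike: chi-square per degree of freedom between replicates was 4.79 for vehicle and 36.5 for LY500307. The fits without an LY500307 sample thus take their spread from the closer vehicle pair. Calls among all genes tested moved in the same way as those among matrix genes. They were most numerous without LY500307 replicate 1 and fewest without LY500307 replicate 2. Whether matrix genes were called more often than all genes in these fits was not tested.

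Genes with values near 0 changed sign. With library totals alone LAMC1 was 0.024 and COL5A2 0.018. With length correction these were 0.019 and 0.00050, and with the replicate block with length correction 0.017 and 0.00080. With GC correction COL2A1 was -0.077, TIMP2 -0.086, COL5A1 -0.071, MMP2 -0.039, MMP15 -0.046 and MMP25 -0.059. With the replicate block with GC correction they were -0.082, -0.086, -0.076, -0.045, -0.046 and -0.058, and LAMA5 was -0.0069. With a sample left out, NID1 ranged from -0.026 to 0.17, LAMC1 from -0.096 to 0.067, COL5A2 from -0.052 to 0.011, COL2A1 from -0.14 to 0.20, TIMP2 from -0.011 to 0.023, TIMP3 from -0.098 to 0.0070, COL4A2 from -1.07 to 1.28, COL5A1 from -0.045 to 0.10, LAMA5 from -0.10 to 0.41, LAMB1 from -0.0096 to 0.049 and MMP2 from -0.066 to 0.16. The cause was not tested.

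Same-numbered deviations from the group means had a correlation of -0.07 across 14473 genes. This gave no sign that the replicate numbers pair the samples, but with 2 samples per group it cannot exclude pairing. With the replicate block, 6 matrix genes were called, as without it, against 717 and 669 of all genes. The number of all genes with an adjusted p below 0.05 was 0 with edgeR (1678 at an unadjusted p below 0.05), and 16 with DESeq2. Under the replicate block it was 1, or 106 once length correction was added. Over all genes, 319 rose and 358 fell in that last fit and 267 and 295 with the replicate block with GC correction, against 400 and 269.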

Other observations

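A few low-count genes that the symbol rule took in are given here as values. COL6A4P1, a collagen VI pseudogene that did not pass the filter, had 10 and 1 reads with vehicle and 0 and 0 with LY500307, and it met the DEG criteria with DESeq2 and with edgeR on all genes of at least 1 count. MMP19, named after its values were seen, had 0 and 0 reads with vehicle and 12 and 1 with LY500307, nearly all of them in LY500307 replicate 1, and rose only in the edgeR fit on all genes of at least 1 count. MMP23B had 0 and 1 reads, then 2 and 15. Its near-identical copy MMP23A, annotated as a pseudogene, had 0, 0, 0 and 2, so reads may be split between them. Of the 34 genes not tested, 8 had 0 reads in every library (COL10A1, COL8A1, LAMB4, MMP7, MMP8, MMP12, MMP20 and MMP27), and no library had more than 25 reads of any of the 34. The log2 fold change of COL4A3BP was -0.0035, and LAMB2P1 had 13 and 10 reads with vehicle and 12 and 11 with LY500307.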
